A study of Mus musculus with 4 samples.

Results

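The cholesterol genes described here are Hmgcs1, Idi1, Fdft1, Sqle, Lss and Cyp51, which encode enzymes of sterol synthesis, and Srebf2 and Insig1, which control them. They were taken by name, with every probe set annotated to 1 of these genes alone, which gave 21 probe sets of the 45037 on the array and 8 genes of 18193. The lists and the interest in NT-1 were chosen with earlier results of these data known. The 8 genes contain no receptor or transporter, so uptake genes were read from a separate list of the pathway. Messenger RNA was measured on 4 Affymetrix mouse arrays. The NT-ESC group comprised 3 embryonic stem cell lines, NT-1, NT-2 and NT-3, from blastocysts cloned by nuclear transfer with the iPSC clone as nuclear donor. The iPSC group was that parental clone, Adeno-1, which came from tail-tip fibroblasts reprogrammed with adenoviral vectors. All cells were grown in medium with serum and LIF over irradiated embryonic fibroblasts as feeders, which a brief preplating step was meant to take away. Every line goes back to the 1 donor clone. Strain, sex and passage are not given in the sources used here.

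Cells make cholesterol from acetyl-CoA through mevalonate, farnesyl diphosphate, squalene and lanosterol. SREBP2, the protein of Srebf2, is held in the endoplasmic reticulum by SCAP and the INSIG proteins while sterols are plentiful; when sterols run low it is carried to the Golgi, cut by the proteases encoded by Mbtps1 and Mbtps2, and its released part enters the nucleus and activates the genes of the pathway, Insig1 and Srebf2 included. It binds sterol regulatory elements (SREs), usually beside sites of NF-Y, which recognises CCAAT.

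Promoter windows of 6 of the 8 genes were held in the RefSeq table (GRCm38.p6), each with 250 bases before and 50 after the annotated start. Hmgcs1 and Insig1 are shown because they had the largest differences by brightest probe set in the comparisons below, and Srebf2 because it encodes the activator. Capitals mark matches on either strand to TCACNCCAC or TCACCCCA, 2 overlapping forms of the SRE, and to CCAAT; the shorter SRE form was chosen after the windows had been read. The Hmgcs1 window is chr13:119690101-119690400 on the plus strand, that of Insig1 chr5:28071162-28071461 on the plus strand, and that of Srebf2 chr15:82147019-82147318 on the plus strand.
Hmgcs1: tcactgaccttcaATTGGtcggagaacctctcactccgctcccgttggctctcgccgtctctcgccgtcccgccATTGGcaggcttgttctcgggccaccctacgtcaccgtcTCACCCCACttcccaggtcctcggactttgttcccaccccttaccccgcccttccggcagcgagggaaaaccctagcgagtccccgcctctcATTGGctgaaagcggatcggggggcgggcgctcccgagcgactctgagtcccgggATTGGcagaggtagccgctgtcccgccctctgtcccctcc
Insig1: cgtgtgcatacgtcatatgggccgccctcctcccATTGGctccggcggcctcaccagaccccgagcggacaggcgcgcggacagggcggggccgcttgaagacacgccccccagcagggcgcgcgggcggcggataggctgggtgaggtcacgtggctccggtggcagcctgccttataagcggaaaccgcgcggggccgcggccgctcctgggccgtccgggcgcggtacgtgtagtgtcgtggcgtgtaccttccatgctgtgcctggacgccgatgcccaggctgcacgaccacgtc
Srebf2: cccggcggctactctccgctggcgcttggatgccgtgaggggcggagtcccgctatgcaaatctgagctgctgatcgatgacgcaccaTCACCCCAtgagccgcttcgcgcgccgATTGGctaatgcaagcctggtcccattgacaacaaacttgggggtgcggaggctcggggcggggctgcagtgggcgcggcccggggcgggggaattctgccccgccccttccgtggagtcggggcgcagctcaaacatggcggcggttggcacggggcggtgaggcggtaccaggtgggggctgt
With the annotated start at position 0, the Hmgcs1 window held TCACNCCAC at -137 to -129, where the 2 SRE forms overlap, and 4 CCAAT matches. The Srebf2 window held TCACCCCA at -162 to -155 and 1 CCAAT match, and the Insig1 window held 1 CCAAT match and neither SRE form. The windows of Idi1, Lss and Cyp51 also held CCAAT but neither SRE form. Of 32851 promoter windows of the same length, 1.24% held TCACNCCAC, 1.56% held TCACCCCA and 37.4% held CCAAT. These are matches of letters, and binding was not measured.

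Values below are levels on a log2 intensity scale on which each array's mean is taken to be 7, because the deposited values give each probe set's log intensity only relative to the array's mean. All log2 differences scale with that assumed mean: they are 14.3% smaller with a mean of 6 and 12.3% greater with 7.86. Each line and the clone had 1 array, so no array has a replicate of its own. SDs measure the spread between the lines. For the lines against the clone, limma's standard errors rest on that spread, moderated over all probe sets. For 1 line against the other arrays, they rest on the spread of those arrays, the clone included. All 8 pluripotency markers were bright, with a mean level of 12.30 in NT-1, 12.32 in NT-2 and 12.31 in NT-3, against 12.24 in the clone. NT-1 was highest for 4 of the 8, against 20.9% of all genes and 26.7% of probe sets with a mean level of at least 8. It was lowest for 1, Dppa5a. Dppa5a stood at 13.34 in NT-1, and at 13.78, 13.78 and 13.76 in NT-2, NT-3 and the clone. Esrrb stood at 11.38, 11.30 and 11.27 in the lines, against 11.015 in the clone. These 2 markers were named after their values were seen. The fibroblast and feeder markers, of which 9 of 10 were measured, averaged 8.34, 8.44 and 8.34 in the lines, against 8.31 in the clone. All lines were above the clone for 4 of the 8 pluripotency markers and 5 of these 9, against 24.7% of all genes. All were below it for 0 and 1, against 26.7%. The median log2 difference between the lines and the clone was 0.0995 for the pluripotency markers and 0.0840 for the fibroblast and feeder markers. For Actb the 3' probe set exceeded the 5' one, a gap that grows as RNA degrades, by 0.28, 0.42 and 0.29 in the lines, against 0.22 in the clone. Bright probe sets were slightly higher in the lines as a whole: those with a mean level from 8 to 10 had a median difference from the clone of 0.0277, and those under 6 of -0.0297.

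NT-1 and NT-2 had higher levels than the iPSC clone on most of the sterol probe sets, while NT-3 lay above it for some genes and below it for others. NT-1 was above the clone on 18 of the 21 probe sets, with a median log2 difference of 0.196, and NT-2 was above it on 18, with a median of 0.174. NT-3 was above it on 12, with a median of 0.0207 that pools differences of both signs. By brightest probe set NT-3 differed from the clone by 0.23 for Hmgcs1 and 0.13 for Lss, but by -0.24 for Sqle. Over all probe sets the shares above the clone were 47.0% for NT-1, 47.9% for NT-2 and 46.9% for NT-3. At a mean level of at least 8, NT-1, NT-2 and NT-3 were above the clone on 7782, 7401 and 6764 of 12801 probe sets. Of the 14 sterol probe sets at that level, they were above it on 14, 14 and 9. Of the 9 fibroblast and feeder markers 5 were highest in NT-2, where 23.6% of all genes were. The collagen gene Col3a1 stood at 9.89 in NT-2, against 9.44 in the clone, Col1a2 at 11.11, against 10.80, and Col1a1 at 10.18, against 9.87. The matrix gene Postn stood at 7.70 in NT-2, against 7.46 in the clone, while Thy1 and Lum were lower in NT-2 than in the clone. The median of the 9 markers between NT-2 and the clone was 0.106. These marker genes were named after their values were seen, and their part in the NT-2 values was not tested. By brightest probe set and the mean of the lines, Hmgcs1, at the entry of the pathway, differed most among the enzymes. Sqle and Srebf2 differed least from the clone by that mean. No probe set passed limma's test (Benjamini-Hochberg adjusted p from 0.849 to 0.988 for the 21). RNA came from whole cultures, so fewer cells with the transcript and less of it per cell cannot be told apart.

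**Figure D1:**
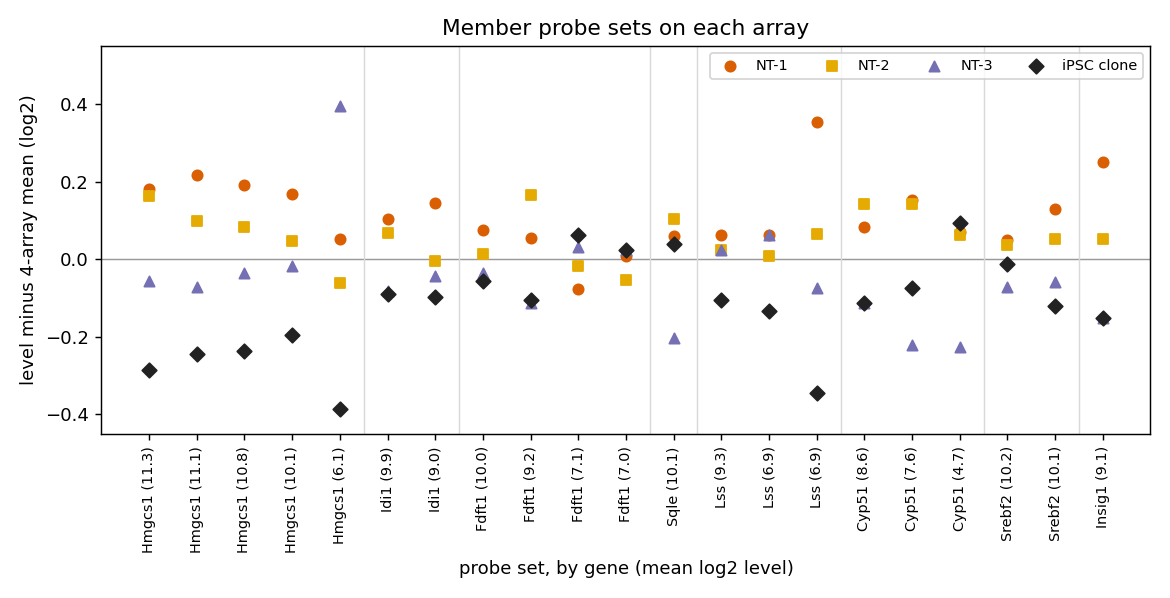
Level of each of the 21 probe sets minus its own mean over the 4 arrays (log2, vertical axis), by gene in pathway order with the mean log2 level in brackets (horizontal axis); symbols are the single arrays. NT-1 lies highest on 13 probe sets and the iPSC clone lowest on 12.

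Against the clone, all 3 NT-ESC lines were higher on 12 of the 21 probe sets (57.1%) and lower on 2. The 12 included all 5 probe sets of Hmgcs1 and all 3 of Lss, which are repeated readings of the same genes. By gene, with the brightest probe set, all lines were higher for 4 of 8 and all lower for 0, against 24.7% and 26.7% of all genes. All lines were likewise higher for 4 of 8 pluripotency markers and 5 of 9 fibroblast and feeder markers. Over all probe sets the lines were all higher for 23.8% and all lower for 27.5%, and for 33.1% and 18.8% of those with a mean level of at least 8, where 9 of 14 sterol probe sets had all lines higher. The median log2 difference between the lines' mean and the clone was 0.141 for the sterol probe sets and -0.00771 for all 45037. None of the 45037 passed limma's test (0.0%, smallest Benjamini-Hochberg adjusted p = 0.849), and 2609 (5.79%) had an unadjusted p under 0.05. At that unadjusted limit 6 of the 21 sterol probe sets were higher, against 3.44% of all probe sets. These were the 5 probe sets of Hmgcs1 and 1 of Lss, so they come from 2 genes and the same 4 RNA samples. NT-3 lowered the shared count. Without it both remaining lines were higher on 18 of the 21 probe sets, with a median of 0.213, while 32.7% of all probe sets were higher in both. At a mean level of at least 8, both were higher on 5963 of 12801 probe sets and on 14 of 14 sterol ones.

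Hmgcs1 encodes the HMG-CoA synthase that makes the substrate of the rate-limiting reductase. Its brightest probe set stood at 11.46 in NT-1, 11.44 in NT-2 and 11.22 in NT-3, against 10.99 in the clone. Every line lay above the clone, NT-1 and NT-2 lay within 0.02 of each other, and NT-3 fell between them and the clone. The lines averaged 11.37 ± 0.13 (SD, n = 3), a log2 difference of 0.38 ± 0.12 (SE), or 1.30-fold, that did not pass over all probe sets (limma, Benjamini-Hochberg adjusted p = 0.849). The one after it stood at 11.31, 11.19 and 11.02 in the lines, against 10.85 in the clone. The next stood at 11.03, 10.92 and 10.80 in the lines, against 10.60 in the clone. The fourth in brightness stood at 10.26, 10.14 and 10.07 in the lines, against 9.89 in the clone. On these 4 probe sets the arrays came in the same order, NT-1, NT-2, NT-3 and the clone. The dimmest probe set also had the clone lowest, but NT-3 highest, with 6.15, 6.04 and 6.49 in the lines, against 5.71 in the clone.

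Idi1 encodes the isomerase that balances the 5-carbon building blocks. It stood at 10.003, 9.97 and 9.82 in NT-1, NT-2 and NT-3, against 9.81 in the clone, by its brighter probe set. The other probe set stood at 9.13, 8.98 and 8.94 in the lines, against 8.88 in the clone. Both probe sets had NT-1 highest and the clone lowest, with NT-3 within 0.06 of the clone. The lines differed from the clone by 0.12 ± 0.10 and 0.13 ± 0.10 log2 (SE).

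Fdft1 encodes squalene synthase, the first step given over to sterols. Its brightest probe set stood at 10.09, 10.02 and 9.98 in the lines, against 9.95 in the clone, a log2 difference of 0.07 ± 0.09 (SE), or 0.0450 without NT-1. The next stood at 9.30, 9.41 and 9.13 in the lines, against 9.14 in the clone, with NT-2 highest and NT-3 lowest. Of the 2 dimmer probe sets, one had the clone highest, with 7.05, 7.11 and 7.16 in the lines, against 7.19 in the clone. The last had 7.04, 6.98 and 7.06 in the lines, against 7.06 in the clone, where NT-3 and the clone had the same deposited value. The probe sets of Fdft1 therefore disagree on which array is highest.

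Sqle encodes squalene epoxidase, a rate-limiting oxygenase of the later pathway, and had 1 probe set. It stood at 10.15 in NT-1, 10.19 in NT-2 and 9.89 in NT-3, against 10.13 in the clone. NT-1, NT-2 and the clone lay within 0.07 of one another and NT-3 lay below all of them. The lines' mean differed from the clone by -0.05 ± 0.14 log2 (SE), by 0.0422 without NT-3, by -0.0897 without NT-1 and by -0.111 without NT-2. NT-3 against the other 3 arrays differed by -0.27 ± 0.08 (SE) (limma, Benjamini-Hochberg adjusted p = 0.375).

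Lss encodes lanosterol synthase, which closes the ring system of the sterols. Its brightest probe set stood at 9.35, 9.31 and 9.31 in the lines, against 9.18 in the clone. The lines lay close together, at 9.32 ± 0.02 (SD, n = 3), and the clone lay below them by 0.14 ± 0.08 log2 (SE). The 2 others, near the median level of all probe sets of 6.83, also had the clone lowest. One stood at 6.95, 6.90 and 6.95 in the lines, against 6.76 in the clone. The other stood at 7.23, 6.94 and 6.80 in the lines, against 6.53 in the clone.

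Cyp51 encodes the cytochrome P450 that removes a methyl group from lanosterol. Its brightest probe set stood at 8.67, 8.73 and 8.47 in the lines, against 8.47 in the clone, where NT-3 and the clone had the same deposited value. The second stood at 7.80, 7.79 and 7.42 in the lines, against 7.57 in the clone. NT-1 and NT-2 lay above the clone and NT-3 at it or below it on both. The remaining one was dim, at 4.73, 4.73 and 4.44 in the lines, against 4.75 in the clone. NT-3 was lowest on both of these dimmer probe sets, by -0.29 ± 0.12 and -0.30 ± 0.08 log2 (SE) from the other arrays (limma, Benjamini-Hochberg adjusted p = 0.522 and 0.299).

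Of the regulators, Insig1 separated the lines more than Srebf2 did. Insig1 encodes an anchor that retains SCAP and SREBP in the endoplasmic reticulum, is itself an SREBP target, and had 1 probe set. It stood at 9.40 in NT-1, 9.20 in NT-2 and 8.996 in NT-3, against 8.996 in the clone. NT-3 and the clone had the same deposited value, NT-2 lay above them and NT-1 above NT-2. The lines' mean differed from the clone by 0.20 ± 0.16 log2 (SE), by 0.101 without NT-1 and by 0.302 without NT-3. Srebf2 stood at 10.21, 10.19 and 10.09 in the lines, against 10.14 in the clone, by its brightest probe set, a log2 difference of 0.02 ± 0.09 (SE) whose sign turned under quantile normalization and without NT-1 (-0.00338). Without NT-2 it was 0.00369 and without NT-3 0.0564. Its other probe set stood at 10.21, 10.14 and 10.02 in the lines, against 9.96 in the clone, a difference of 0.16 ± 0.10 (SE). NT-1 was the highest array on both probe sets of Srebf2, and they disagree on whether NT-3 or the clone was lowest.

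**Figure D2:**
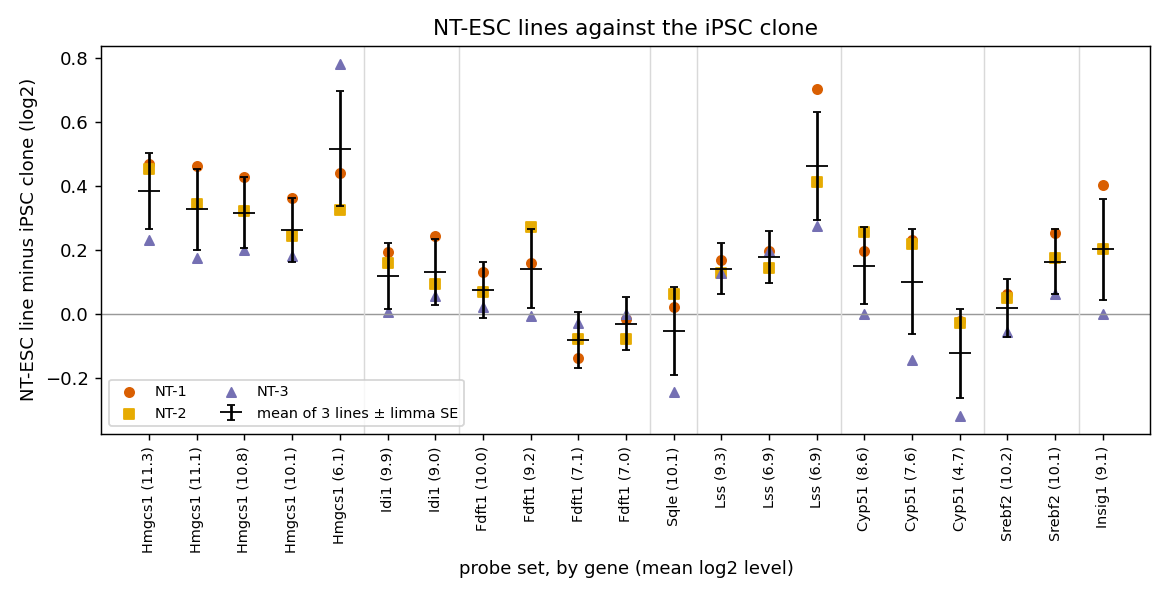
Log2 difference of each NT-ESC line from the iPSC clone (coloured symbols) and of the mean of the 3 lines with limma's SE (black bars), for the 21 probe sets by gene in pathway order with the mean log2 level in brackets. The mean of Hmgcs1 lies between 0.26 and 0.52 on all 5 probe sets, and the mean of Sqle at -0.05.

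Set against the other 3 arrays, NT-1 was the highest array on 13 of the 21 sterol probe sets (61.9%), and above the mean of the others on 20. Over all probe sets NT-1 was the highest for 21.5% and above the mean of the others for 48.4%. For those with a mean level of at least 8, it was the highest for 26.7%, and on 11 of 14 sterol probe sets. At that level it was above the mean of the others on 7668 of 12801, and on 14 of 14 sterol probe sets. By gene, with the brightest probe set, NT-1 was highest for 6 of 8, all but Sqle and Cyp51, where NT-2 was. The median log2 difference was 0.111 for the sterol probe sets and -0.00358 for all. Without NT-2 that sterol median was 0.189, and NT-1 was the highest of the remaining arrays on 16 of the 21 probe sets. No probe set passed limma's test for NT-1 (0.0%, smallest Benjamini-Hochberg adjusted p = 0.848), while 1505 had an unadjusted p under 0.05; among them were 2 sterol probe sets, against 3.34% of all. This comparison and the one between the lines and the clone share all 4 arrays, so they are not separate evidence.

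The 2 probe sets were those of Insig1 and of Lss. Insig1 was 9.40 in NT-1 and 9.06 on average on the other arrays, a log2 difference of 0.33 ± 0.11 (SE), and Lss, by its dimmest probe set, was 7.23 in NT-1 and 6.76 on the others, a difference of 0.47 ± 0.16 (limma, Benjamini-Hochberg adjusted p = 0.9995 for each). Hmgcs1 differed by 0.24 ± 0.17 by its brightest probe set, and by 0.126 against NT-2 and NT-3 alone. Idi1 differed by 0.14 ± 0.10, Cyp51 by 0.11 ± 0.13, Fdft1 by 0.10 ± 0.09, Lss by 0.08 ± 0.10, Sqle by 0.08 ± 0.14 and Srebf2 by 0.07 ± 0.09. The sign for Sqle rested on NT-3, since without it the difference was -0.0106, while without NT-2 it was 0.142. Cyp51 differed by 0.196 without NT-2, and by 0.0678 without NT-3 or without the clone. The difference of Lss was 0.0388 without the clone, and that of Srebf2 was 0.0388 without NT-3. NT-2 was the nearest array: NT-1 was above it on 17 of the 21 probe sets, against 48.4% of all, with a median gap of 0.0528, against a median gap of 0.188 to NT-3. Of the 21, 0 probe sets had an unadjusted p under 0.05 for NT-2 against the other arrays and 4 had one for NT-3, against 3.48% and 8.94% of all probe sets; over all probe sets limma called 0.0% for NT-2 and 0.104% for NT-3, and none of the 21. For NT-3 these were the Sqle probe set and 2 of Cyp51, which were lower, and the dim one of Hmgcs1, which was higher.

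Markers of trophectoderm were mixed: the mean of the 5 had the same order of arrays as Hmgcs1, and of the single genes only Krt8 shared it. The trophectoderm markers averaged 7.88 in NT-1, and 7.73 in NT-2, 7.43 in NT-3 and 7.42 in the clone. Of the 5, 3 were highest in NT-1, Krt8, Krt18 and Elf5, against 20.9% of all genes. The keratin Krt8 stood at 9.62 in NT-1, and at 9.35, 8.41 and 8.39 in NT-2, NT-3 and the clone. The keratin Krt18 stood at 9.37 in NT-1, and at 9.08, 8.01 and 8.30 in NT-2, NT-3 and the clone. Of the transcription factors, Eomes lay above the median level of all probe sets on every array and was highest in NT-3, at 7.99 in NT-1, and 7.83, 8.38 and 7.65 in NT-2, NT-3 and the clone. Cdx2 lay below the median level on every array and was highest in the clone, at 6.11 in NT-1, and 6.23, 6.08 and 6.45 in NT-2, NT-3 and the clone. Elf5, also below it, ranged over the arrays by little, at 6.34 in NT-1, and 6.16, 6.25 and 6.30 in NT-2, NT-3 and the clone. Their part in the sterol gene values was not tested. The primitive endoderm markers averaged 6.56 in NT-1, and 6.58, 6.69 and 6.58 in NT-2, NT-3 and the clone.

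**Figure D3:**
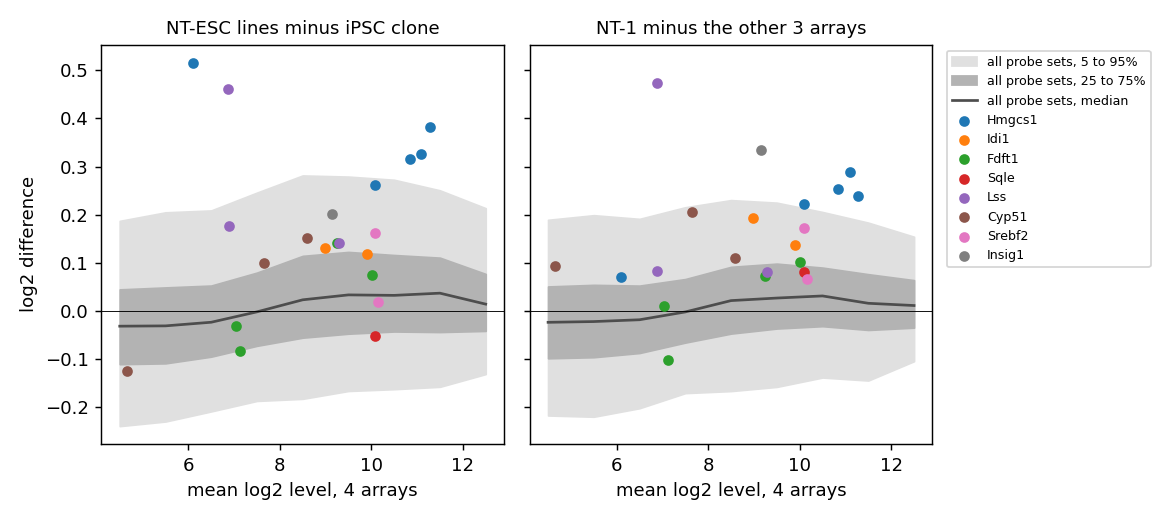
Log2 difference (vertical axis) against mean log2 level over the 4 arrays (horizontal axis) for the 21 probe sets, coloured by gene, over the spread of all 45037 probe sets in steps of 1 log2 level (grey bands and median line). Left, NT-ESC lines minus iPSC clone; right, NT-1 minus the other 3 arrays; at levels 11 to 12 the upper grey edge on the left is 0.25, and the 2 Hmgcs1 probe sets there lie at 0.33 and 0.38.

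The rest of the pathway was read from 6 lists, which held 60 genes with the 8 above included; 52 were measured by a probe set of their own and 8 were not analysed here. None of their genes passed limma's test in either comparison. Among 17 measured enzymes of cholesterol synthesis, 9 had all lines above the clone and 1 had all below, where 24.7% and 26.7% of all genes did. NT-1 was highest for 11 of them, against 20.9% of all genes. All of them but Hsd17b7 had a mean level of at least 8. Of all probe sets at that level, 33.1% had all lines higher, 18.8% had all lower and 26.7% had NT-1 highest. The shares of all genes given for the lists below are likewise not matched for level. Their median log2 difference was 0.0856 between the lines and the clone and 0.0985 between NT-1 and the other arrays, against -0.00311 and -0.00312 over all genes. At an unadjusted p under 0.05 stood 2 of them, Hmgcs1 and Pmvk, in the first comparison (5.16% of all genes) and 1, Ebp, in the second (2.65%).

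Of 7 further measured enzymes that act after lanosterol, beside Cyp51, the order of arrays varied by gene. Ebp, the sterol isomerase, was 9.37 in NT-1, and 9.08, 8.86 and 9.09 in NT-2, NT-3 and the clone, and had the largest NT-1 difference of the enzymes, 0.36 ± 0.12 log2 (SE). Dhcr7, which makes cholesterol from 1 of its last precursors, stood at 9.45, 9.33 and 9.30 in the lines, against 9.13 in the clone, with every line above the clone. Sc5d, a desaturase of the same stretch, stood at 8.10, 8.04 and 8.03 in the lines, against 7.95 in the clone. Hsd17b7, a sterol ketoreductase, was nearly flat at 7.81, 7.80 and 7.78 in the lines, against 7.85 in the clone. Msmo1, the sterol methyl oxidase, had NT-3 highest, at 10.40, 10.26 and 10.71 in the lines, against 10.14 in the clone. Nsdhl, the decarboxylating dehydrogenase that acts beside it, stood at 9.26, 9.19 and 9.13 in the lines, against 9.26 in the clone. Tm7sf2, a sterol reductase, stood at 8.49, 8.46 and 8.39 in the lines, against 8.36 in the clone. Every line lay above the clone for Dhcr7, Sc5d, Msmo1 and Tm7sf2, every line below it for Hsd17b7, and the lines fell on both sides of it for Ebp and Nsdhl. In the earlier pathway, Pmvk, the phosphomevalonate kinase, had NT-3 highest, at 9.08, 9.15 and 9.28 in the lines, against 8.79 in the clone. Fdps, farnesyl diphosphate synthase, stood at 11.05, 10.86 and 10.88 in the lines, against 10.97 in the clone, so only NT-1 was above the clone.

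The 7 genes of SREBP control had a median log2 difference of 0.0802 between the lines and the clone and 0.00387 between NT-1 and the others. Srebf1, which encodes the SREBP that mainly serves fatty acid synthesis, stood at 9.63, 9.70 and 9.70 in the lines, against 9.45 in the clone, a difference of 0.23 ± 0.08 (SE). Scap, the sterol sensor, stood at 9.13, 9.24 and 9.07 in the lines, against 9.07 in the clone. Insig2, the paralogue of Insig1, had a different order, at 8.06, 7.99 and 8.27 in the lines, against 8.23 in the clone. Mbtps1, the first of the 2 proteases, was highest in NT-3, at 10.45, 10.54 and 10.98 in the lines, against 10.36 in the clone. It lies on chromosome 8, as do Mvd, Msmo1 and Fnta of these lists, and all 4 were highest in NT-3, as were 25.7% of all genes; they were singled out after their values were seen.

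Of the 9 measured genes of uptake and intracellular transport, 4 had all lines above the clone, against 24.7% of all genes. NT-1 was highest for 4 of the 9 and NT-2 for 4, against 20.9% and 23.6% of all genes. The median difference between the lines and the clone was 0.0638. Npc1, which moves cholesterol out of lysosomes, stood at 8.06, 7.82 and 7.59 in the lines, against 7.49 in the clone, the same order of arrays as for Hmgcs1. It was 0.43 ± 0.14 log2 (SE) above the other arrays in NT-1, the largest such difference among the 52 genes by brightest probe set. Its luminal partner Npc2 did not follow, at 10.54, 10.80 and 10.41 in the lines, against 10.56 in the clone. Vldlr, a receptor for triglyceride-rich lipoproteins, stood at 7.49, 7.28 and 7.40 in the lines, against 7.05 in the clone. Lipa, the lysosomal lipase that frees cholesterol from its esters, stood at 7.96, 8.04 and 7.91 in the lines, against 7.93 in the clone.

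Of the genes of efflux and the LXR receptors 3 were measured, too few to set against the 20.9% of all genes with NT-1 highest; Abca1 and Nr1h3 were highest in NT-3 and Abcg1 in NT-2. The cholesterol exporter Abca1 stood at 8.46, 8.32 and 8.48 in the lines, against 8.24 in the clone. Abcg1, another exporter, stood at 8.14, 8.31 and 8.28 in the lines, against 8.24 in the clone. Nr1h3, which encodes LXR alpha, stood at 6.66, 6.73 and 6.74 in the lines, against 6.67 in the clone.

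The 6 genes of the isoprenoid branch had a median of 0.0244 between the lines and the clone; Ggps1, geranylgeranyl diphosphate synthase, stood at 7.97, 7.74 and 7.73 in the lines, against 7.85 in the clone. In the same branch Fntb, a farnesyltransferase subunit, stood at 9.72, 9.77 and 9.24 in the lines, against 9.56 in the clone. Fnta, the other subunit, stood at 10.89, 10.99 and 11.30 in the lines, against 10.98 in the clone. Pggt1b, which encodes another prenyltransferase subunit, stood at 8.48, 8.56 and 8.42 in the lines, against 8.38 in the clone.

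The 10 fatty acid synthesis genes, many of them SREBP1 targets, had a median of 0.134 between the lines and the clone. All lines were above the clone for 6 of them, against 24.7% of all genes. In this list NT-3 was highest for 5 genes and NT-1 for 4, against 25.7% and 20.9% of all genes. Scd1, the stearoyl-CoA desaturase, stood at 10.13, 9.996 and 10.19 in the lines, against 9.66 in the clone, a difference of 0.44 ± 0.10 (SE). Elovl6, a fatty acid elongase, stood at 10.23, 10.38 and 10.51 in the lines, against 10.13 in the clone. Acly, which makes the acetyl-CoA for both pathways, stood at 11.47, 11.43 and 11.16 in the lines, against 11.32 in the clone. Me1, malic enzyme, was lowest in NT-1, at 8.69, 8.96 and 9.22 in the lines, against 8.98 in the clone. NT-3 minus the clone thus had a median of 0.206 for fatty acid genes and of 0.0207 for cholesterol enzymes, a difference that was not tested.

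**Figure D4:**
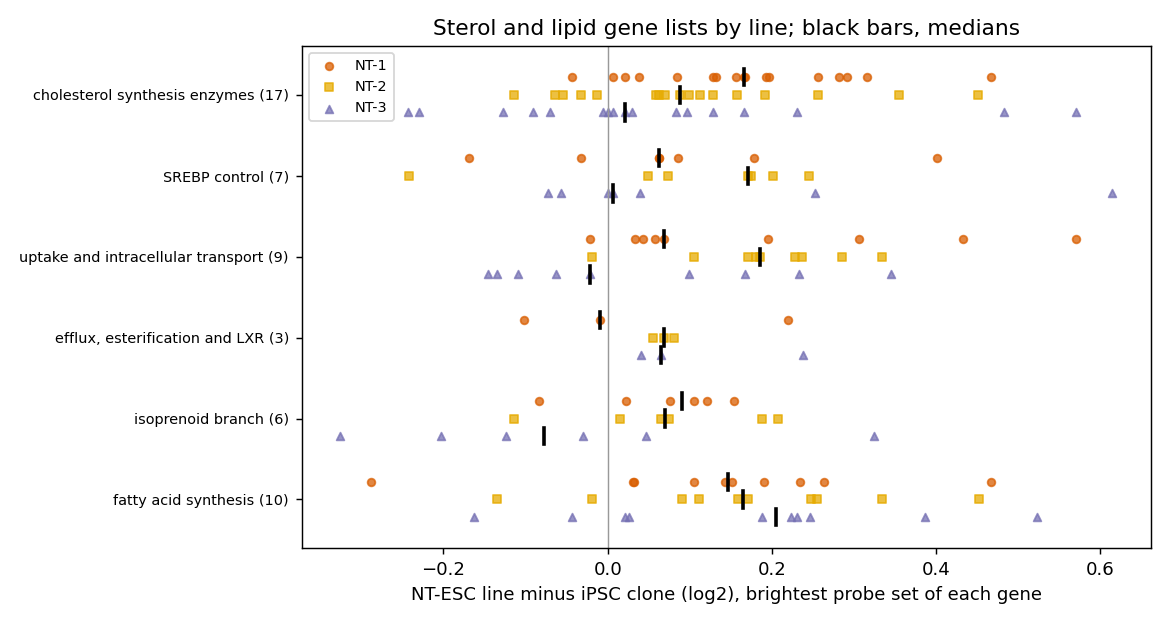
Log2 difference of NT-1, NT-2 and NT-3 from the iPSC clone for the genes of 6 lists, by the brightest probe set of each gene (points; gene numbers in brackets), with the median of each line as a black bar. For cholesterol synthesis the medians are 0.166, 0.0886 and 0.0207, and for fatty acid synthesis 0.146, 0.165 and 0.206, each in the order NT-1, NT-2, NT-3.

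The mean pattern of the 8 genes by brightest probe set lay 0.108 above the 4-array mean in NT-1 and 0.0751 above it in NT-2, and stood at -0.0860 in NT-3 and -0.0970 in the clone. Over the 4 arrays, the probe sets outside these lists nearest to that pattern by Euclidean distance were those of Tnks1bp1 (0.0143), Pde2a (0.0147), Akap12 (0.0179), Golim4 (0.0194) and Med19 (0.0214), of 19524 compared. With 4 points and so many probe sets, close matches are easily found.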

How the data were processed

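Total RNA was labelled as biotinylated cRNA and hybridised to Affymetrix arrays, per the labels' protocols. The authors deposited log2 values, each the log2 of a ratio whose mean was 1 on each array; the array normalization and summarization are not given in the sources used here. Levels were computed as 7 times that ratio, which puts the brightest probe set at 14.2; the values have 3 decimals, so 1 step is 0.00693 log2 at a level of 10. The 64 control probe sets were left out of all tests. Of the others, 34945 had 1 annotated gene, 932 several and 9160 none, and symbols were updated through RefSeq gene IDs (34741 found). The tests of the NT-ESC lines against the clone, and of each line against the other 3 arrays, used limma 3.58.1 in R 4.3.3 (lmFit, eBayes, two-sided, 2 residual degrees of freedom, Benjamini-Hochberg over 45037 probe sets, threshold 0.05), the lone array being assumed to vary like the others. Nothing in the labels says that the NT-ESC lines come from separate derivations, so p-values measure only the spread between these arrays. The number of arrays limits the precision. Medians and counts of probe sets are descriptions without a test. Lists used the brightest probe set of each gene by its mean over the 4 arrays; the text names all 8 genes, a fixed set of key pathway genes and, of each list, the genes at either end of the NT-1 difference. The members and lists were chosen with earlier results of these data known. In simulations of 3 arrays against 1 with 200 of 45037 probe sets altered, the test recovered 0.597% of differences of 0.5 log2, 70.1% of 1 and 99.4% of 2, with 7.8 false calls per run. Alternatives were another assumed mean, the deposited values as given, quantile normalization, a filter on dim probe sets, 1 value per gene, probe set type, an intensity trend and leaving out each array.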

Additional observations from a re-analysis of the deposited data

How the results depend on the processing

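No probe set was called by limma under any alternative run, in either comparison. The counts of sterol probe sets kept within 1.5 times their value except with 1 value per gene, where fewer features are counted: all NT-ESC lines were higher for 4 of 8 genes by highest or by mean probe set, and NT-1 was highest for 6 of 8 by highest and 5 of 8 by mean. With quantile normalization the count with all lines higher fell from 12 to 10 of the 21, and the median between the lines and the clone from 0.141 to 0.104. For NT-1 the count stayed at 13 and the median was 0.108. On the deposited scale, whose unit is larger, the medians were 0.022 between the lines and the clone and 0.02 between NT-1 and the other arrays. Leaving out 1 array at a time, the median between the lines and the clone ran from 0.118 to 0.213 and the count with all lines higher from 12 to 18, while for NT-1 the median ran from 0.111 to 0.189 and the count from 14 to 16. The difference of Srebf2 between the lines and the clone was -0.0192 with quantile normalization and ran from -0.00338 to 0.0564 when 1 line was left out; that of Sqle ran from -0.111 to 0.0422, and for NT-1 from -0.0106 to 0.142. The cause was not tested. No paired analysis was possible because the clone has 1 array and is the parent of every line. The differences of the 8 genes by brightest probe set were all under 0.5 log2, a size of which the simulated test recovered 0.597%.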
